A study of Mus musculus with 20 samples.

Results

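A set of 10 genes that respond to low oxygen or carry glycolysis was followed in rat lung after bleomycin, a DNA-damaging drug used to injure the lung experimentally. They were Egln3, Ndrg1, Bnip3, Adm, Slc2a1, Hk2, Pfkfb3, Aldoa, Pgk1 and Ldha. They were selected by symbol, with earlier results of these data known. Each symbol had 1 row in the deposited table of 23799 genes, and all 10 genes were above the level filter that left 15875 genes for testing. The samples were lungs of Sprague Dawley rats, an outbred stock, in 4 groups of 5: bleomycin females, bleomycin males, sham females and sham males. Per the labels, the rats were those of a BW-matched cohort, and samples were put in random order before library preparation. No genetic change was listed for any group, and the labels call the bleomycin treatment a model of acute lung injury. Bleomycin dose, route, time of collection and age are not in the labels. Although the organism field reads Mus musculus, the animals are described here as rats, since the stock, the genome used for alignment and the gene identifiers belong to that species.

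Cells read oxygen through prolyl hydroxylases, which mark the hypoxia-inducible factor (HIF) alpha subunits for destruction when oxygen is present. When oxygen falls, the alpha subunits last longer, pair with Arnt and switch on genes for glucose uptake, glycolysis, mitochondrial turnover and vessel tone. Many of the same genes are also induced by inflammatory signals and by growth, and activated macrophages and dividing cells are known for high glycolysis. Messenger RNA does not report the HIF proteins, which are controlled mainly by their stability.

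The 20 libraries held 68.6 to 87.5 M counts. The lung label fitted the markers: surfactant and other alveolar type 2 genes summed to at least 3378 fragments per kilobase per M fragments (FPKM, a level scaled for gene length and library size) in every library. In addition, 5 libraries carried at least 50 FPKM of Alb, Acta1, Adipoq or Myl7, genes of liver, skeletal muscle, fat and atrial heart muscle. These were bleomycin males 2 and 5, sham female 1, and sham males 3 and 5. Calls of the 10 genes that changed without them are given with and without them. For genes of the other lists such values are not given gene by gene. The mitochondrial share of counts was 4.43% to 5.61% in bleomycin females, 5.43% to 9.56% in bleomycin males, 5.61% to 7.41% in sham females and 4.42% to 7.63% in sham males. The labels do not name litters or cages, so p-values measure the spread between these lungs. That spread was estimated for each gene over all 4 groups together, not for the groups compared alone. The groups were not equally variable: the median coefficient of variation of the 10 genes was 26.7% in bleomycin males and 9.53% in sham females.

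Responses were tested on the counts with edgeR's quasi-likelihood test and adjusted over all 15875 genes by the Benjamini-Hochberg method. A gene is said to have risen or fallen where its adjusted p was under 0.05. In females, 1 of the 10 genes rose (Adm) and 2 fell (Ndrg1 and Bnip3), where 13.2% of all tested genes rose and 8.38% fell. In males, 5 of the 10 rose (Ndrg1, Bnip3, Hk2, Pgk1 and Ldha), where 22.6% of all tested genes rose and 19.3% fell. The median log2 fold change of the 10 genes was -0.0092 in females and 0.27 in males, while the median over all tested genes was -2.4e-05 in females and 0.044 in males. Ndrg1 and Bnip3 therefore passed in opposite directions in the 2 sexes. In bulk tissue, fewer cells of a type and less RNA per cell cannot be told apart, and this holds for every result here.

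**Figure D1:**
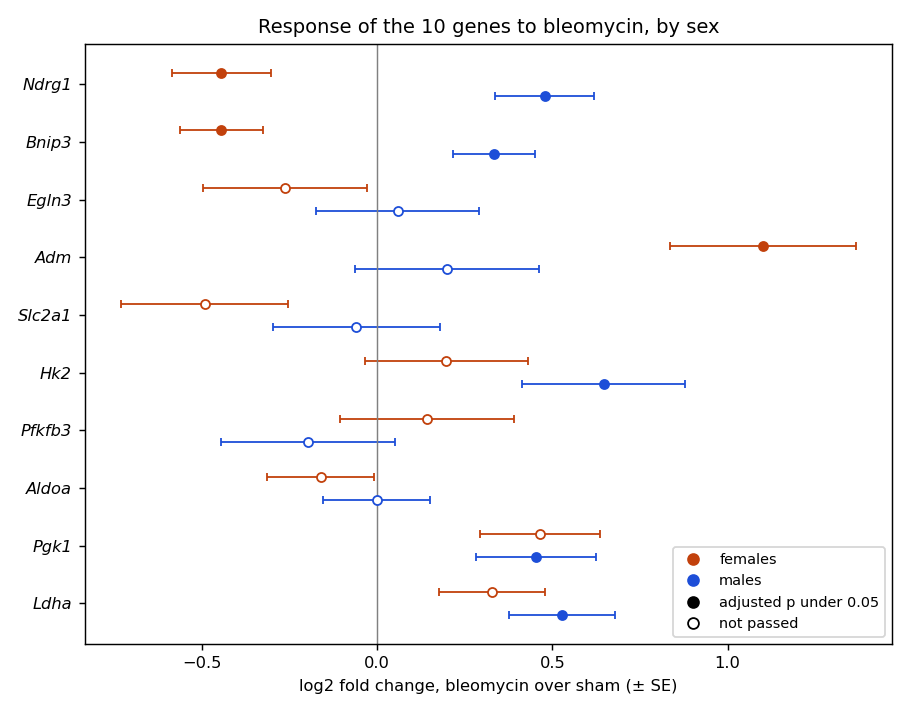
Response of each of the 10 genes to bleomycin, as log2 fold change of bleomycin over sham (horizontal axis) with its standard error, in females and males. Filled points passed at an adjusted p under 0.05. Ndrg1 and Bnip3 lie left of 0 in females (-0.44 and -0.44) and right of 0 in males (0.48 and 0.33), and Adm is far from 0 in females (1.10).

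Levels of the 10 genes spanned a wide range. The median over all 20 libraries was highest for Aldoa (242 FPKM), Ldha (140 FPKM) and Pgk1 (77.4 FPKM), enzymes of glycolysis. Slc2a1 (24.4 FPKM) and Ndrg1 (18.0 FPKM) lay in the middle. Bnip3 (9.13 FPKM), Pfkfb3 (8.63 FPKM), Adm (6.86 FPKM), Hk2 (2.84 FPKM) and Egln3 (1.66 FPKM) were lowest. The median coefficient of variation of the 10 genes was larger after injury. It was 20.9% in bleomycin females and 26.7% in bleomycin males, against 9.53% in sham females and 17.0% in sham males. Single genes went the other way in males: Adm (31.2% after bleomycin, 48.8% in sham), Slc2a1 (27.6% and 29.9%) and Pfkfb3 (32.3% and 33.1%). These differences in spread were not tested. Within bleomycin females, female 1 had the highest level of 6 of the 10 genes and female 5 the lowest level of 6. For each of the 10 genes, groups next to each other in the order of their means had overlapping ranges.

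**Figure D2:**
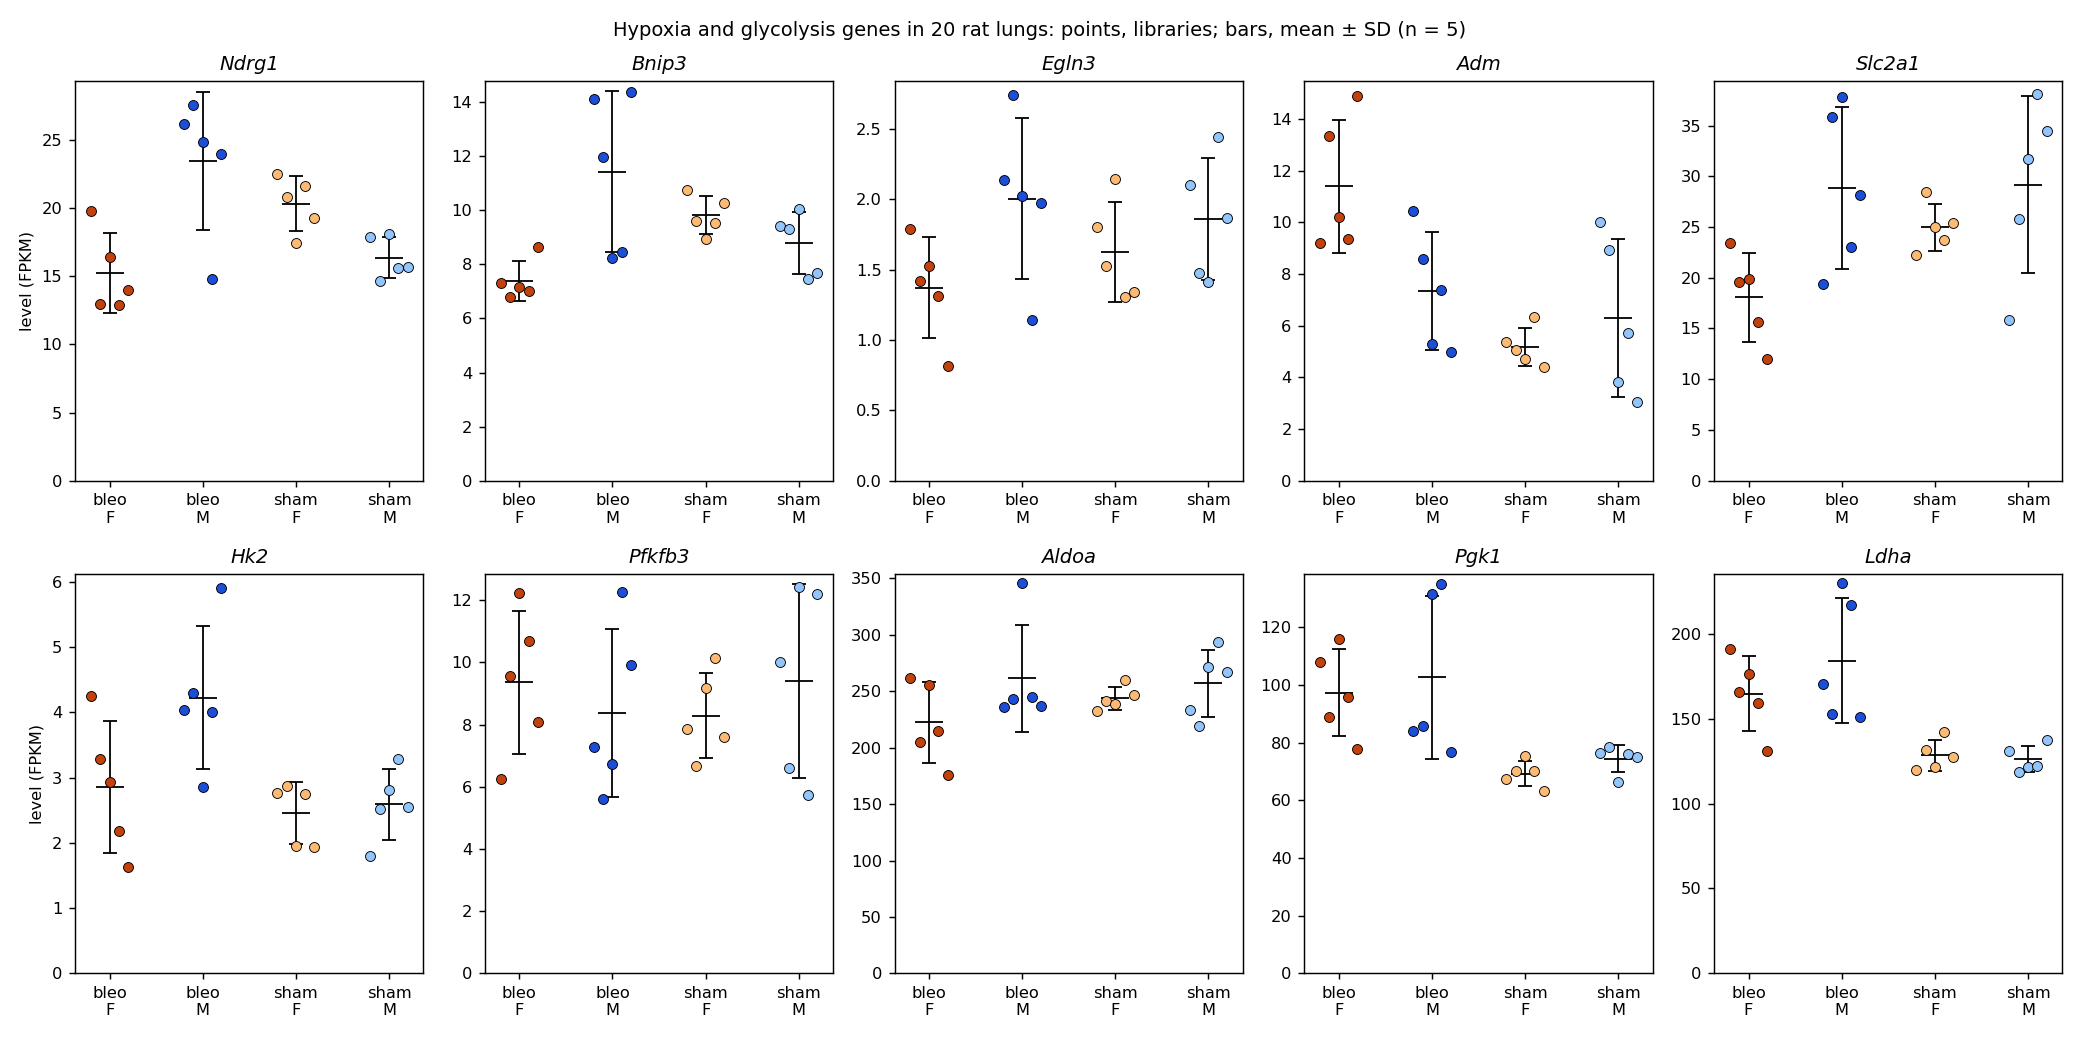
Level of each gene in FPKM (vertical axes, all starting at 0) in every library, with the group mean and SD (n = 5), for bleomycin females, bleomycin males, sham females and sham males. Bleomycin females are lowest on average for Ndrg1 (15.2 FPKM) and Bnip3 (7.39 FPKM), for which bleomycin males are highest (23.5 and 11.4 FPKM).

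Ndrg1 encodes a cytoplasmic protein of stress and differentiation whose transcript is a common marker of low oxygen. Its row lies at chr7:98684487-98725880 on the minus strand, in the table's coordinates. Levels were 19.8, 13.0, 16.5, 12.9 and 14.0 FPKM in bleomycin females, and 26.2, 27.6, 24.9, 14.8 and 24.0 FPKM in bleomycin males. They were 22.5, 20.8, 17.5, 21.7 and 19.3 FPKM in sham females, and 17.9, 14.7, 18.1, 15.6 and 15.7 FPKM in sham males. Bleomycin males 1, 2, 3 and 5 were above every other lung, and male 4 was among the sham males. Bleomycin females were mostly below sham females, but the highest of them overlapped the lower sham females.

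Ndrg1 fell by 0.44 ± 0.14 (SE) on the log2 scale in bleomycin females relative to sham females (adjusted p = 0.0301). In males it rose by 0.48 ± 0.14 (adjusted p = 0.0112). The response of females minus that of males was -0.92 ± 0.20 (adjusted p = 0.0208). Female lungs were lower than male lungs after bleomycin (log2 difference -0.60, adjusted p = 0.00876), whereas the sham difference did not pass (0.32, adjusted p = 0.437). The female call was the least secure: it was lost on leaving out any 1 of 7 libraries, sham females 1, 2, 4 and 5 and bleomycin females 2, 4 and 5, with adjusted p of 0.0539 to 0.079. Without the 5 libraries with tissue other than lung, the difference of response was -0.92 (adjusted p = 0.101), the male response 0.50 (adjusted p = 0.0755) and the female response -0.43 (adjusted p = 0.0868). The difference between females and males after bleomycin was then -0.57 (adjusted p = 0.0673), and it was -0.62 in a fit of only the groups compared (adjusted p = 0.084).

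Bnip3 encodes a mitochondrial outer membrane protein that recruits the machinery of mitophagy, the removal of mitochondria. The row lies at chr1:193708167-193725359 on the minus strand. Its levels were 7.30, 6.80, 7.16, 7.03 and 8.65 FPKM in bleomycin females, and 14.1, 12.0, 8.25, 8.46 and 14.4 FPKM in bleomycin males. Sham females had 10.7, 9.61, 8.95, 9.54 and 10.3 FPKM, and sham males had 9.42, 9.31, 10.0, 7.45 and 7.66 FPKM. All 5 bleomycin females lay below all 5 sham females, a separation downward that 8.77% of all tested genes showed. Bleomycin males 1, 2 and 5 stood above the sham males, and males 3 and 4 lay among them.

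Bnip3 fell by 0.44 ± 0.12 on the log2 scale in females (adjusted p = 0.0104) and rose by 0.33 ± 0.12 in males (adjusted p = 0.029). The female response minus the male response was -0.78 ± 0.17 (adjusted p = 0.0199). After bleomycin, females were lower than males by a log2 difference of -0.60 (adjusted p = 0.0036). In a fit of only the groups compared it was -0.62 (adjusted p = 0.0654). The sham difference was 0.17 (adjusted p = 0.679). The female fall passed under all 30 alternative settings, with a largest adjusted p of 0.0497. The male rise was lost under 9 of the 30, among them leaving out sham male 4 or 5 or bleomycin male 1 or 5 (adjusted p 0.0636 to 0.0929). Without the 5 libraries with tissue other than lung it was 0.27 (adjusted p = 0.183), and the difference of response was -0.70 (adjusted p = 0.0969).

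Ndrg1 and Bnip3 were the 2 of the 10 genes whose response differed between the sexes, both lower in females, and 2.04% of all tested genes passed in that direction. The same 2 genes were lower in females than in males after bleomycin, where 8.72% of all tested genes were lower. Markers of fat cells were lower in the same comparison, 5 of the 5 tested, with a median log2 difference of -3.05. Other lists also had markers that passed there, among them macrophage markers (2 of 5 lower in females). Endothelial (4 of 6), alveolar type 1 (4 of 6) and red cell markers (4 of 5) were higher in females. The 6 listed fat cell markers summed to 5.31 to 18.9 FPKM in bleomycin females and 10.4 to 308 FPKM in bleomycin males, against 6.92 to 34.0 FPKM in sham females and 5.76 to 19.0 FPKM in sham males. The highest sum of fat cell markers was that of bleomycin male 5. The part of any of these marker lists in the differences was not tested. The comparison of females with males after bleomycin had a median log2 difference of -0.37 over the 10 genes and -0.021 over all tested genes. The median difference of response over the 10 genes was -0.26, and over all tested genes -0.015. In sham lungs 0 of the 10 genes differed between the sexes by edgeR, where 0.523% of all tested genes did. At an unadjusted p under 0.05 the sham count was 1 (Ndrg1), and DESeq2 and limma also gave 0 at an adjusted p under 0.05.

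**Figure D3:**
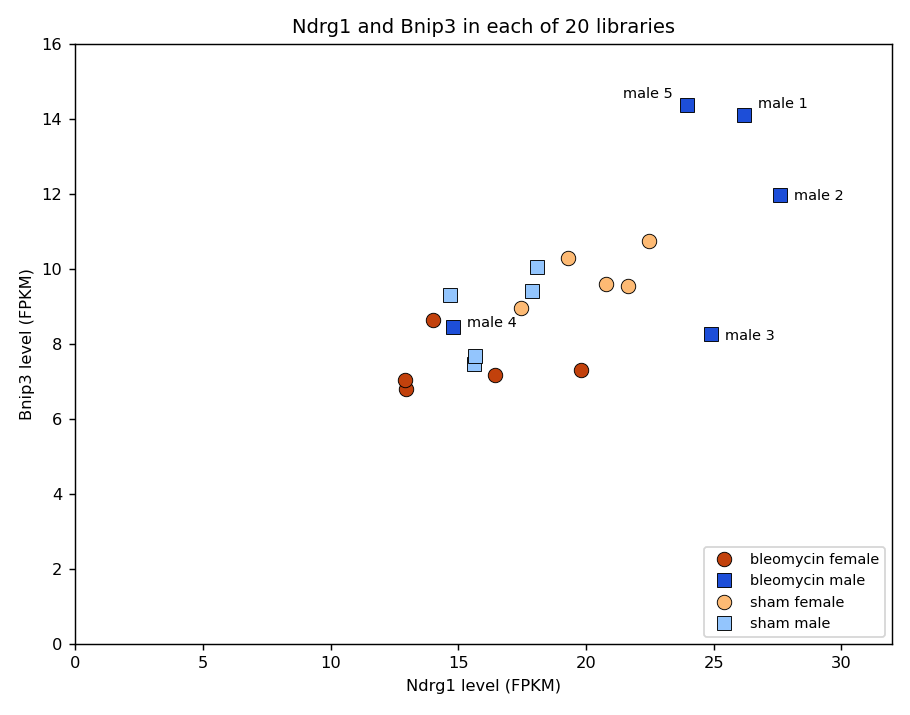
Level of Ndrg1 (horizontal axis, FPKM) and of Bnip3 (vertical axis, FPKM) in each of the 20 libraries, with the 5 bleomycin males numbered. Bleomycin males 1, 2 and 5 lie at upper right, male 3 is high for Ndrg1 only (24.9 FPKM) and male 4 (14.8 and 8.46 FPKM) lies among the other groups.

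Bnip3l, the close relative of Bnip3 that clears mitochondria from maturing red cells, fell in both sexes: by 0.42 ± 0.080 in females (adjusted p = 0.000771) and by 0.56 ± 0.080 in males (adjusted p = 3.66e-05), on the log2 scale. Bnip3 made up 21.3% ± 1.18 of the summed FPKM of both genes in bleomycin females and 31.8% ± 4.51 in bleomycin males (SD, n = 5 each). In sham females its share was 21.5% ± 0.846 and in sham males 20.2% ± 1.66 (SD, n = 5 each). The share in bleomycin males (25.6% to 35.6%) did not overlap that in sham males (19.0% to 23.0%). Red cell markers, 5 of 6 listed symbols found, summed to 255 to 1040 FPKM in bleomycin females and 54.1 to 382 FPKM in bleomycin males. Their sums were 624 to 1493 FPKM in sham females and 1241 to 2601 FPKM in sham males. In males all 5 red cell genes fell, and in females 0 of the 5 passed (median log2 fold change -0.80). The part of these genes in the level of Bnip3l was not tested.

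Adm encodes adrenomedullin, a secreted peptide that widens vessels and tightens the endothelial barrier. Its row lies at chr1:164745466-164747654 on the plus strand. Its levels were 9.20, 13.4, 10.2, 9.36 and 14.9 FPKM in bleomycin females, and 10.4, 8.59, 5.28, 7.39 and 4.99 FPKM in bleomycin males. Sham females had 5.38, 5.06, 4.71, 6.33 and 4.39 FPKM, and sham males had 10.0, 8.94, 3.81, 5.71 and 3.05 FPKM. Every bleomycin female was above every sham female, which 14.9% of all tested genes showed upward. The male groups overlapped almost wholly, and sham males were the most variable of all (coefficient of variation 48.8%).

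Adm rose by 1.10 ± 0.26 on the log2 scale in females, 2.14-fold (adjusted p = 0.00539). It was the 1 gene of the 10 to pass with a log2 rise of at least 1 in females, as 5.46% of all tested genes did. The call held under all 30 alternative settings (log2 fold change 0.99 to 1.20). In males the response was 0.20 ± 0.26 (adjusted p = 0.573). The difference of response, 0.90 ± 0.37, did not pass (adjusted p = 0.132), so a response particular to females was not shown. Female lungs had a log2 difference of 0.65 from male lungs after bleomycin (adjusted p = 0.0839, or 0.0472 without bleomycin male 1) and of -0.25 in sham (adjusted p = 0.82).

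The adrenomedullin receptor is Calcrl joined to a RAMP protein, and Ackr3 is a scavenger receptor for the peptide. Of the 4 listed symbols 3 were found and tested; Ramp2 was not analysed here. In females Ackr3 rose (0.50 ± 0.15, adjusted p = 0.0242). This call was lost under 5 of 30 alternative settings, among them leaving out sham female 4 or bleomycin female 2 or 3, with adjusted p of up to 0.0863. In males Ramp3 rose (1.10 ± 0.28, adjusted p = 0.00453) and Calcrl fell by 1.66 ± 0.30 (adjusted p = 0.000279). Calcrl averaged 68.7 ± 9.70 FPKM in bleomycin females and 29.3 ± 15.1 FPKM in bleomycin males, with 71.7 ± 9.71 FPKM in sham females and 90.4 ± 24.8 FPKM in sham males (SD, n = 5 each). Over all tested genes 3.65% had a higher response in females than in males. For Calcrl the log2 difference was 1.57 ± 0.42 (adjusted p = 0.0371), a call lost under 14 of 29 alternative settings. Some endothelial markers also fell in males: the 6 listed summed to 430 to 590 FPKM in bleomycin females and 260 to 469 FPKM in bleomycin males, with 439 to 492 FPKM in sham females and 441 to 670 FPKM in sham males. Of these 6 markers, 2 rose and 1 fell in females and 3 fell in males, and their part in the level of Calcrl was not tested.

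Egln3 is the HIF prolyl hydroxylase that is itself strongly induced by HIF. It lies at chr6:71650297-71675766 on the minus strand and was the lowest of the 10 genes, with 179 to 607 counts a library. Levels ran from 0.819 to 1.79 FPKM in bleomycin females (median 1.42) and from 1.14 to 2.75 FPKM in bleomycin males (median 2.03). In sham females they ran from 1.31 to 2.15 FPKM (median 1.53) and in sham males from 1.42 to 2.44 FPKM (median 1.87). The 4 ranges overlapped. The log2 response was -0.26 ± 0.23 in females (adjusted p = 0.461) and 0.058 ± 0.23 in males (adjusted p = 0.862), and the sign in males turned on leaving out sham male 2 or 3 or bleomycin male 2 (log2 -0.024, -0.019 and -0.052). Egln3 made up 2.91% ± 0.973 of the summed FPKM of Egln1, Egln2 and Egln3 in bleomycin females, 3.53% ± 0.701 in bleomycin males, against 2.74% ± 0.596 in sham females and 3.52% ± 0.947 in sham males (SD, n = 5 each).

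Other genes of the HIF system changed mainly downward in males. Of 9 listed genes 8 were tested. Over all tested genes 8.38% fell in females, and 19.3% fell and 22.6% rose in males. In females 2 fell, Egln1, the main oxygen sensor among the prolyl hydroxylases (-0.51 ± 0.082, adjusted p = 0.00015), and Vhl, the ubiquitin ligase subunit that binds hydroxylated HIF alpha (-0.21 ± 0.075, adjusted p = 0.0496). In males 5 fell: Epas1 (HIF-2 alpha) by 1.37 ± 0.23 (adjusted p = 0.000119), Hif1an, the asparagine hydroxylase of HIF, by 0.61 ± 0.12 (adjusted p = 0.000657), and Egln1, Arnt and Vhl by 0.46, 0.40 and 0.27. Egln2, another prolyl hydroxylase, rose in males (0.37 ± 0.10, adjusted p = 0.00677). Hif1a did not pass in either sex (0.048 in females and -0.20 in males). The Vhl call in females was lost under 21 of 30 alternative settings.

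Epas1 was abundant, with 515 ± 85.2 FPKM in bleomycin females and 278 ± 131 FPKM in bleomycin males, and 598 ± 21.5 FPKM in sham females and 712 ± 27.4 FPKM in sham males (SD, n = 5 each). Its response was higher in females than in males by a log2 difference of 1.12 ± 0.31 (adjusted p = 0.0439), and that of Egln2 was lower (-0.54 ± 0.14, adjusted p = 0.0356). The call was lost under 19 of 29 alternative settings for Epas1 and 14 of 29 for Egln2. After bleomycin, where 11.7% of all tested genes were higher in females, Epas1 (0.88), Hif1an (0.40) and Arnt (0.28) were higher in females than in males and Egln2 (-0.38) was lower. The call was lost under 7 of 30 alternative settings for Hif1an and under 2 of 30 each for Epas1, Arnt and Egln2. The number of HIF system genes that passed here, 4, ran from 0 to 4 over the settings. Alveolar type 1 markers summed to 1616 to 2282 FPKM in bleomycin females and 502 to 1717 FPKM in bleomycin males. Their sums were 2277 to 2988 FPKM in sham females and 2011 to 2767 FPKM in sham males. The median sum was 2906 FPKM in sham females and 2476 FPKM in sham males. Of these 6 markers 2 fell in females and 4 fell in males. Their part in the level of Epas1, and that of the endothelial markers, was not tested.

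**Figure D4:**
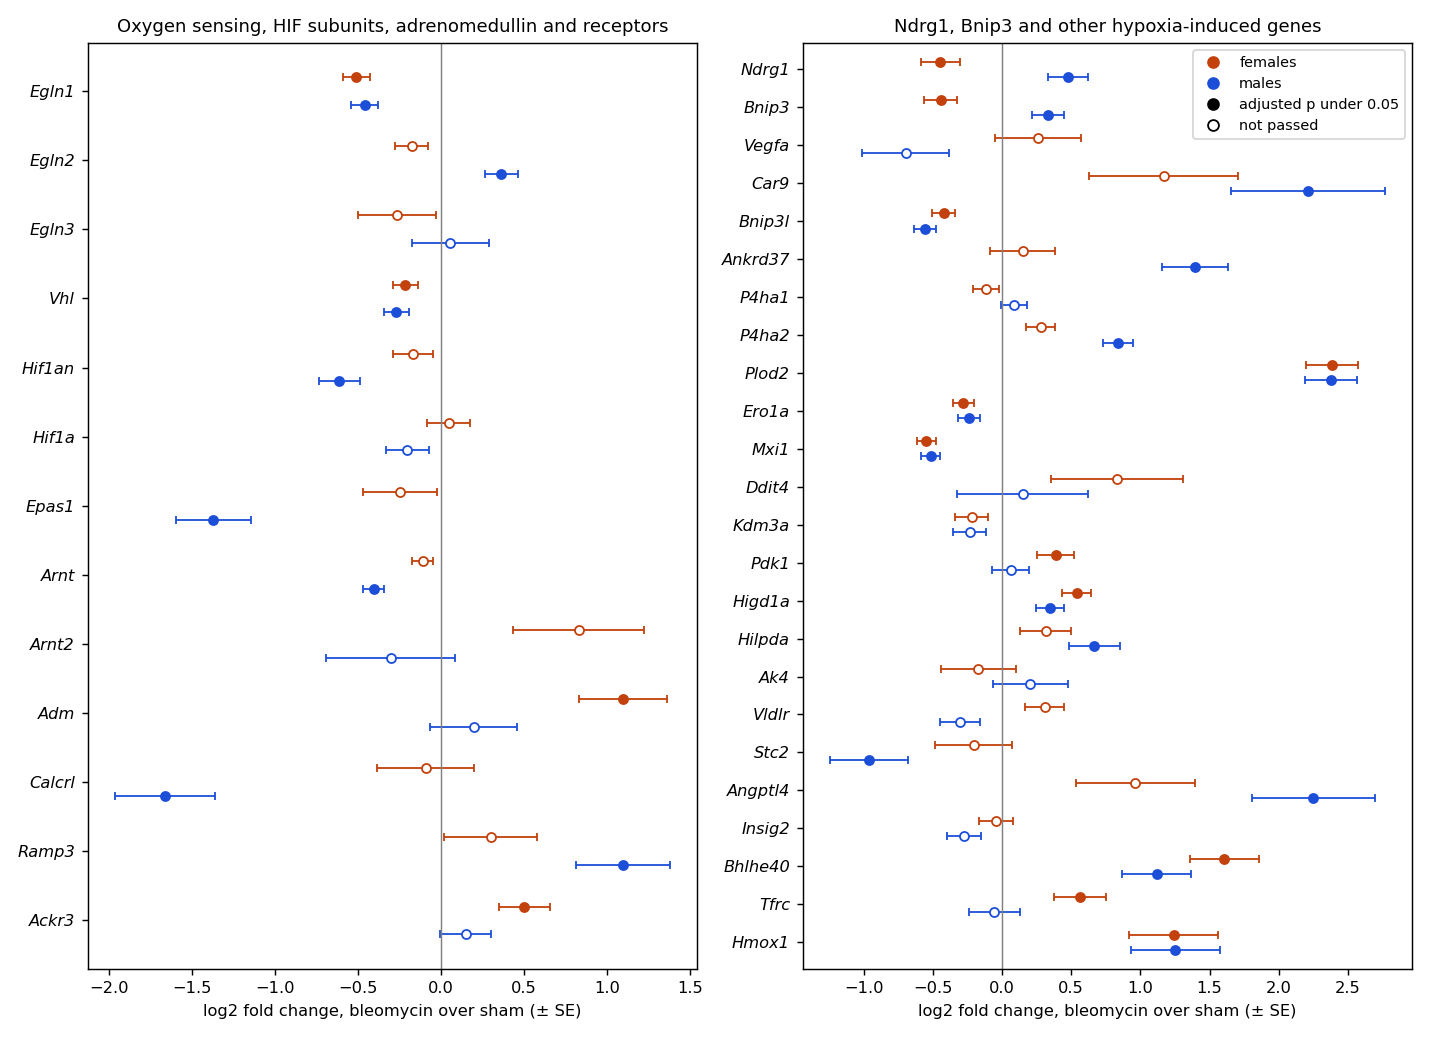
Log2 fold change of bleomycin over sham with its standard error, in females and males, for the HIF system with adrenomedullin and its receptors (left panel) and for Ndrg1, Bnip3 and 22 other hypoxia-induced genes (right panel). Filled points passed at an adjusted p under 0.05. Plod2 (2.38 in both sexes) lies far right, and Epas1 in males far left (-1.37).

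Other genes known to be induced by low oxygen did not move as one. Of 24 listed, 23 were tested. In females 7 rose and 3 fell, where 13.2% of all tested genes rose and 8.38% fell. In males 10 rose and 4 fell, where 22.6% of all tested genes rose and 19.3% fell. The median log2 fold change was 0.31 in females and 0.15 in males. In females Plod2, a lysyl hydroxylase of collagen, rose by 2.38 ± 0.19 (adjusted p = 4.09e-08) and Bhlhe40, a transcriptional repressor, by 1.61 ± 0.25 (adjusted p = 0.00012). In males Plod2 rose by 2.38 ± 0.19 (adjusted p = 2.07e-07) and P4ha2, a prolyl hydroxylase of collagen, by 0.84 ± 0.11 (adjusted p = 1.06e-05). Males also had rises of Angptl4, an inhibitor of lipoprotein lipase (2.25 ± 0.44, adjusted p = 0.000568), Car9, a carbonic anhydrase (2.21 ± 0.56, adjusted p = 0.00378), Hmox1, a heme oxygenase (1.25 ± 0.32, adjusted p = 0.00423), and Bhlhe40 (1.12 ± 0.25, adjusted p = 0.00155). Hmox1 rose in females as well (1.24 ± 0.32, adjusted p = 0.0087), while Angptl4 (0.96, adjusted p = 0.118) and Car9 (1.17, adjusted p = 0.133) did not pass there. Car9 was near the floor, with means of 0.723 FPKM in bleomycin males and 0.146 FPKM in sham males. Its highest sham levels were 0.278 FPKM in females and 0.411 FPKM in males. It thus met the filter of 0.5 FPKM only through bleomycin lungs, and its rise carries little weight. Its log2 value in males ran from 0.59 to 3.09 over the settings. Fibroblast markers were also raised, summing to 1096 to 1649 FPKM in bleomycin females and 1467 to 2006 FPKM in bleomycin males, against 238 to 397 FPKM in sham females and 464 to 845 FPKM in sham males. Of 6 fibroblast markers 5 rose in females and 4 in males, and their part in these collagen-modifying genes was not tested.

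Genes of the same list that fell in both sexes were Mxi1, an antagonist of Myc (-0.55 in females, -0.52 in males), Bnip3l and Ero1a, an oxidase of protein folding (-0.28 in females, -0.24 in males). Stc2 fell in males (-0.96). The response differed between the sexes for Ankrd37, a small ankyrin repeat protein (-1.24 ± 0.33, adjusted p = 0.0384), and for P4ha2 (-0.56 ± 0.15, adjusted p = 0.0385). Both rose in males (1.39 for Ankrd37 and 0.84 for P4ha2) and had values of 0.15 and 0.28 in females that did not pass. The call of a difference was lost under 14 of 28 alternative settings for Ankrd37 and 11 of 29 for P4ha2. Among bleomycin lungs, Vegfa (1.15), Vldlr (0.63) and Tfrc (0.54) were higher in females than in males, and Angptl4 (-1.49) and Ankrd37 (-0.88) were lower. Over all tested genes 11.7% were higher in females and 8.72% lower. The call was lost under 20 of 30 alternative settings for Tfrc, 2 of 30 for Vegfa, 2 of 30 for Vldlr, 3 of 30 for Angptl4 and 3 of 29 for Ankrd37. The number of the list that passed here, 5, ran from 0 to 6 over the settings.

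Slc2a1 encodes GLUT1, the glucose transporter of most cells, and lies at chr5:132717196-132745416 on the plus strand. Levels were 23.4, 19.6, 19.9, 15.7 and 12.0 FPKM in bleomycin females, and 19.4, 35.8, 37.8, 23.0 and 28.2 FPKM in bleomycin males. Sham females had 22.3, 28.5, 25.1, 23.7 and 25.4 FPKM, and sham males had 15.8, 25.8, 31.7, 38.1 and 34.5 FPKM. Bleomycin females were the lowest group and male lungs of both groups were widely scattered. The log2 response was -0.49 ± 0.24 in females (adjusted p = 0.151) and -0.059 ± 0.24 in males (adjusted p = 0.863). After bleomycin the difference of females from males was -0.66 ± 0.24 (adjusted p = 0.055), which passed under 9 of 30 alternative settings, among them leaving out sham male 1, bleomycin male 1 or 4, or bleomycin female 1 (adjusted p 0.0278 to 0.0402). Slc2a1 made up 89.7% ± 3.72 of the summed FPKM of Slc2a1 and Slc2a3 in bleomycin females, 90.4% ± 3.99 in bleomycin males, against 93.1% ± 1.89 in sham females and 93.3% ± 4.36 in sham males (SD, n = 5 each).

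Hk2 encodes the inducible hexokinase, which traps glucose as its phosphate. Its row lies at chr4:115234509-115283530 on the minus strand. Levels were 4.25, 3.29, 2.94, 2.18 and 1.63 FPKM in bleomycin females, and 4.04, 4.30, 2.85, 4.00 and 5.91 FPKM in bleomycin males. In sham females they were 2.77, 2.88, 1.95, 2.75 and 1.93 FPKM, and in sham males 1.79, 2.52, 2.82, 3.28 and 2.55 FPKM. Bleomycin males 1, 2, 4 and 5 lay above every sham male, and bleomycin females spread to both sides of the sham females. Hk2 rose in males by 0.65 ± 0.23 (adjusted p = 0.0322), with a value of 0.20 ± 0.23 in females (adjusted p = 0.591). The difference of response was -0.45 ± 0.33 (adjusted p = 0.403), and after bleomycin the difference of females from males was -0.53 ± 0.23 (adjusted p = 0.108, or 0.0319 without bleomycin female 1). The male call was lost on leaving out sham male 1, 2 or 5 or bleomycin male 5 (adjusted p 0.052 to 0.0884), and without the 5 libraries with tissue other than lung (0.55, adjusted p = 0.216).

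A second hexokinase rose in males. Hk3, the hexokinase typical of myeloid cells, rose by 1.22 ± 0.31 in males (adjusted p = 0.00447) and had a value of 0.091 in females. It made up 27.3% ± 10.7 of the summed FPKM of Hk1, Hk2 and Hk3 in bleomycin females and 35.1% ± 3.61 in bleomycin males, against 28.2% ± 4.27 in sham females and 19.3% ± 3.47 in sham males (SD, n = 5 each). Macrophage markers summed to 123 to 285 FPKM in bleomycin females and 205 to 461 FPKM in bleomycin males, against 147 to 166 FPKM in sham females and 113 to 160 FPKM in sham males. Of 5 macrophage markers tested, 2 rose in females and 3 in males. Marco was below 1 FPKM in every library. Of 5 neutrophil markers tested, 0 passed in either sex (median log2 fold change -0.44 in females and -0.49 in males). The part of either list in the hexokinase levels was not tested.

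Pfkfb3 makes the activator of phosphofructokinase and lies at chr17:66983686-67063125 on the plus strand. Levels ran from 6.26 to 12.2 FPKM in bleomycin females (median 9.57) and from 5.61 to 12.3 FPKM in bleomycin males (median 7.27). They ran from 6.69 to 10.1 FPKM in sham females (median 7.87) and from 5.72 to 12.4 FPKM in sham males (median 10.0). The 4 groups overlapped almost wholly. The log2 response was 0.14 ± 0.25 in females (adjusted p = 0.729) and -0.20 ± 0.25 in males (adjusted p = 0.551).

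Aldoa encodes aldolase A, which splits the sugar phosphate into a pair of triose phosphates. The row lies at chr1:181402275-181406182 on the minus strand. Levels ran from 175 to 262 FPKM in bleomycin females (median 215) and from 236 to 346 FPKM in bleomycin males (median 243). In sham females they ran from 232 to 260 FPKM (median 242) and in sham males from 219 to 294 FPKM (median 267). Aldoa was the most abundant of the 10 genes and did not pass in either sex (-0.16 ± 0.15, adjusted p = 0.496 in females; -0.0012 ± 0.15, adjusted p = 0.996 in males). Counting is uncertain here: a second row, LOC103691235, overlaps Aldoa on the same strand and holds 36.8% as many counts as Aldoa.

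Pgk1 encodes phosphoglycerate kinase, a step of glycolysis that yields ATP, and lies at chrX:71271440-71287418 on the plus strand. Levels were 108, 89.0, 116, 95.9 and 78.0 FPKM in bleomycin females, and 84.2, 85.8, 132, 135 and 76.7 FPKM in bleomycin males. Sham females had 67.5, 70.1, 75.4, 70.2 and 63.2 FPKM, and sham males had 76.3, 78.7, 66.3, 76.1 and 75.0 FPKM. All 5 bleomycin females were above all 5 sham females, as for 14.9% of all tested genes. Among bleomycin males, 3 and 4 were far above the sham males and the lowest lay within them.

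Pgk1 had nearly the same estimate in both sexes, 0.46 ± 0.17 in females and 0.45 ± 0.17 in males, with a difference of 0.011 ± 0.24. It passed in males (adjusted p = 0.0401) and not in females (adjusted p = 0.059). Neither call was secure: the male one was lost under 10 of 30 alternative settings and the female one was gained under 12. The male call was lost on leaving out any 1 sham male or bleomycin male 3 or 4, and the female call was gained on leaving out bleomycin male 3, 4 or 5 or bleomycin female 5. Leaving out bleomycin male 3 gave 0.31 in males (adjusted p = 0.134) and leaving out bleomycin male 4 gave 0.32 (adjusted p = 0.127).

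Ldha encodes the lactate dehydrogenase subunit that turns pyruvate into lactate. Its row lies at chr1:97366021-97381243 on the plus strand. Levels were 191, 166, 176, 159 and 131 FPKM in bleomycin females, and 170, 153, 230, 217 and 151 FPKM in bleomycin males. Sham females had 120, 132, 122, 142 and 127 FPKM, and sham males had 131, 119, 121, 122 and 137 FPKM. All 5 bleomycin males lay above all 5 sham males, a separation upward that 12.6% of all tested genes showed. Bleomycin females overlapped sham females through female 5 alone.

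Ldha rose in males by 0.53 ± 0.15 (adjusted p = 0.00896), 1.44-fold. In females the value was 0.33 ± 0.15 (adjusted p = 0.13), and the difference of response was -0.20 ± 0.21 (adjusted p = 0.582). The male call was lost under 2 of 30 alternative settings, limma-voom (adjusted p = 0.0641) and a fit of only the groups compared (adjusted p = 0.0508). The female value passed under 5 of 30, among them limma-voom (adjusted p = 0.00564) and a fit of only the groups compared (adjusted p = 0.0434). Ldha made up 82.0% ± 1.53 of the summed FPKM of Ldha and Ldhb in bleomycin females, 79.6% ± 6.64 in bleomycin males, against 80.7% ± 1.93 in sham females and 76.6% ± 3.32 in sham males (SD, n = 5 each). Ldha, Pgk1 and the other abundant enzymes have processed copies in mammalian genomes, and how shared reads were assigned is not given in the sources used here.

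The rest of glycolysis was tested beside these genes. Of 22 other listed genes 21 were tested, and Gapdh was not analysed here. Over all tested genes 13.2% rose in females and 22.6% in males. In females 1 rose, the neuronal-type enolase Eno2 (0.68 ± 0.21, adjusted p = 0.0234; lost under 6 of 30 alternative settings). In males 9 rose: Eno2 (1.49 ± 0.21, adjusted p = 2.88e-05), Tpi1, the triose phosphate isomerase (0.63 ± 0.10, adjusted p = 0.000105), Pgam1, the phosphoglycerate mutase (0.60 ± 0.12, adjusted p = 0.000932), Hk3, and 5 more that are Eno1, Slc2a3, Tigar, Pfkfb4 and Slc16a1. The last 5 each lost the call under 5 to 9 of 30 alternative settings. The median log2 fold change over the 21 genes was 0.14 in females and 0.42 in males. Tpi1 averaged 75.8 ± 6.20 FPKM in bleomycin females and 105 ± 14.5 FPKM in bleomycin males, against 67.4 ± 3.32 FPKM in sham females and 66.4 ± 1.38 FPKM in sham males (SD, n = 5 each).

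After bleomycin, 4 of these 21 genes were lower in females than in males, Aldoc (-0.86), Eno2 (-0.86), Tpi1 (-0.46) and Pgam1 (-0.39), and Pfkp (0.49) was higher. Over all tested genes 8.72% were lower in females and 11.7% higher. The Pgam1 call was lost under 10 of 30 alternative settings, among them leaving out bleomycin male 2 or 3 or bleomycin female 2, 4 or 5. In a fit of only the groups compared 0 of the 21 passed, and without the 5 libraries with tissue other than lung 1 did. None of the 21 passed for a difference of response by edgeR at an adjusted p under 0.05; 4 had an unadjusted p under 0.05, and at an adjusted p under 0.05 DESeq2 gave 1, limma on log2 FPKM 1 and limma-voom 3. The smallest adjusted p was that of Tpi1 (-0.49 ± 0.14, adjusted p = 0.0509). Cycling-cell markers were raised in both sexes, with sums of 81.4 to 119 FPKM in bleomycin females and 48.2 to 103 FPKM in bleomycin males, against 9.82 to 14.6 FPKM in sham females and 12.3 to 22.5 FPKM in sham males. All 6 rose in each sex, and their part in the glycolysis genes was not tested.

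**Figure D5:**
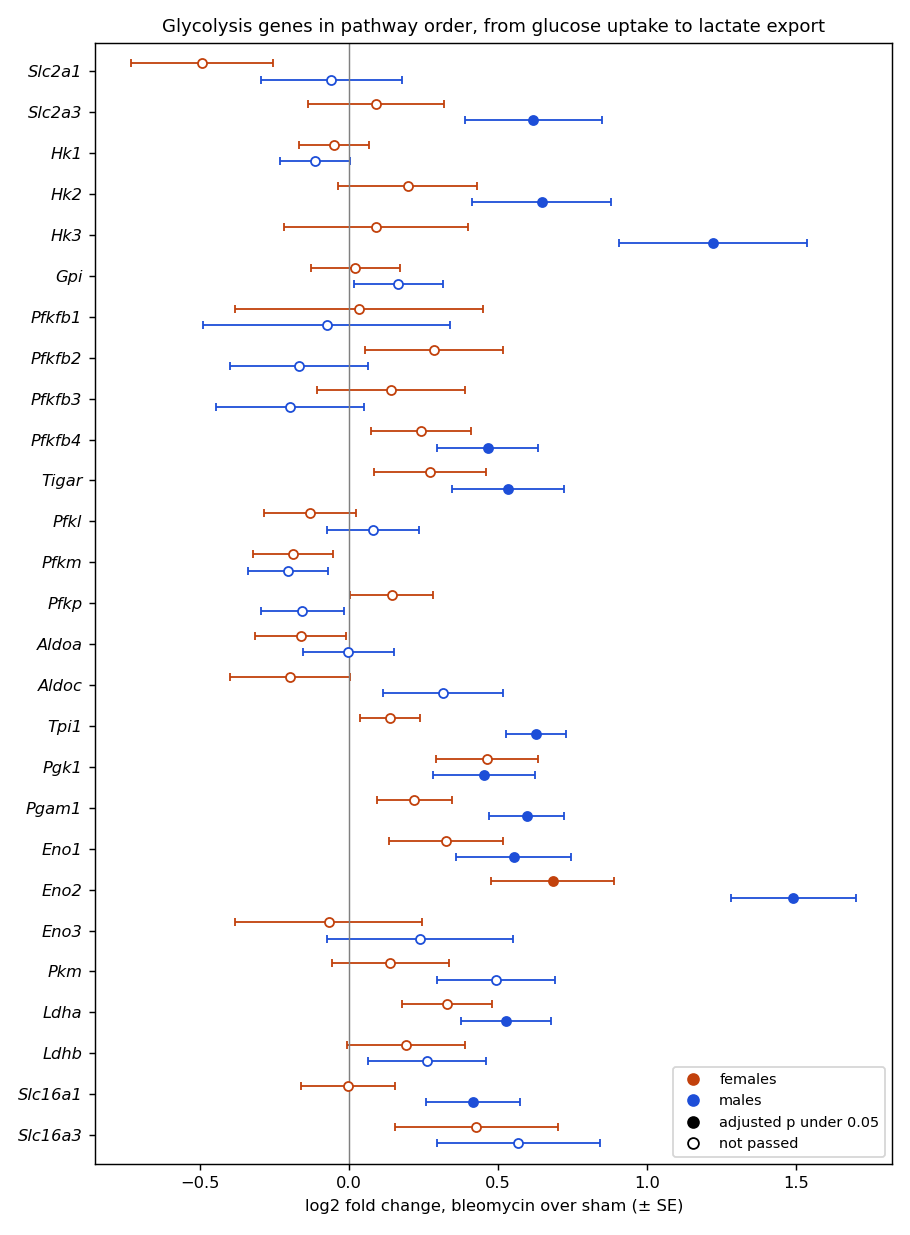
Log2 fold change of bleomycin over sham with its standard error, in females and males, for the tested glycolysis genes from glucose uptake at the top to lactate export at the bottom. Filled points passed at an adjusted p under 0.05. In males the points from Tpi1 (0.63) through Eno2 (1.49) are all filled, and in females Eno2 (0.68) is filled.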

How the data were processed

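Per the labels, poly-A RNA of each lung was made into stranded libraries and read as paired ends of 150 bases. Per the submitters' processing notes, the tools were Cutadapt 1.10, FastQC 0.10.1, HISAT2 2.0 and StringTie 1.3.4, with DESeq2 and edgeR for their own tests. The deposited table holds counts and FPKM for each gene and library. StringTie was the source of the FPKM, per the labels' protocols. How whole counts were made, and whether strand was used, is not given in the sources used here. Among low counts the value 4 was in excess (7103 times, with 3459 for 3 and 2447 for 5), so counts of a few reads are uneven. The labels name Ensembl 112 together with Rnor 6.0, an assembly of earlier Ensembl releases, so coordinates are the table's and their build is uncertain.

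Genes with at least 0.5 FPKM in at least 5 libraries were tested with edgeR 4.0.16 (TMM scaling, robust quasi-likelihood fit of all 4 groups, Benjamini-Hochberg adjustment) in R 4.3.3; the fit was tested on simulated data. Fold changes are from counts and levels are FPKM. Sex differences are female minus male. DESeq2 1.42.0, limma 3.58.1, other filters and scalings, and leaving out each library in turn were tried. The 10 genes and all lists were chosen with earlier results of these data known. Named in the text are the 10 genes in every comparison and, of each list, up to 4 genes with the smallest p and any making up a count of 5 or fewer. Eno1, Slc2a3, Tigar, Pfkfb4, Slc16a1, Hif1a, Bnip3l, Angptl4, Car9, Hmox1 and Bhlhe40, where they fall outside this rule, were named after their values were seen. Of the other hypoxia-induced genes, 1 is counted but not otherwise reported here. Replicates of a group differed by more than counting noise, so none was merged.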

Additional observations from a re-analysis of the deposited data

Results flagged for a closer look

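In 3 of 40 sets of 5 libraries (a gene in a group), 1 library stood far from the others; chance alone gives about 1 in 20, or 2. Ndrg1 in bleomycin male 4 was 14.8 FPKM, and the nearest other bleomycin male had 24.0 FPKM. Aldoa in bleomycin male 3 was 346 FPKM, with the nearest at 245 FPKM. Bnip3 in bleomycin female 5 was 8.65 FPKM, with the nearest at 7.30 FPKM. Bleomycin male 4 also had the lowest macrophage marker sum (205 FPKM) and the highest alveolar type 1 marker sum (1717 FPKM) of the bleomycin males; the part of either in its Ndrg1 level was not tested.

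For 7 genes the response to bleomycin differed between females and males by the interaction term of edgeR, on the log2 scale as female minus male response. It was -0.92 for Ndrg1, -0.78 for Bnip3, -1.24 for Ankrd37, -0.56 for P4ha2, 1.12 for Epas1, -0.54 for Egln2 and 1.57 for Calcrl. Over all tested genes 3.65% passed as higher and 2.04% as lower. Of 29 alternative settings the call was lost under 19 for Epas1, 14 for Egln2, 14 for Calcrl and 11 for P4ha2, and under 14 of 28 for Ankrd37. Without the libraries with tissue other than lung, Ndrg1 (adjusted p = 0.101) and Bnip3 (adjusted p = 0.0969) did not pass either.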

How the results depend on the processing

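Each result was recomputed under 10 other settings and without each of 20 libraries in turn. Of 1490 recomputed responses and differences of the 10 genes, 1365 kept their direction and their side of the threshold, 41 lost a call, 32 gained one and 52 turned sign. In all the cause was not tested, except that leaving libraries out leaves fewer samples. The fits without the 5 libraries with tissue other than lung kept 3 bleomycin males, 4 sham females and 3 sham males.

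The number of the 10 genes that passed in males, 5, was 3 with no filter on low values, 3 with limma-voom, 2 in a fit of only the groups compared and 2 without the libraries with tissue other than lung. Leaving out single libraries gave 2 to 5 (2 without sham male 5, and 3 without sham male 1, 2 or 4 or bleomycin male 5). In females the number, 3, was 5 with scaling by library totals, 5 with limma on log2(FPKM + 0.1), 5 with limma on log2(FPKM + 1), 6 with limma-voom and 6 in a fit of only the groups compared. Between females and males after bleomycin the number, 2, was 0 in a fit of only the groups compared and 1 without the libraries with tissue other than lung, and 2 to 4 without single libraries (4 without bleomycin female 1 or bleomycin male 1 or 4). For the difference of response it was 0 without the libraries with tissue other than lung.

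Over all genes, 3431 passed in females, with 6402 by limma-voom and 5381 in a fit of only the groups compared. Between females and males after bleomycin 3239 passed, with 29 in a fit of only the groups compared and 906 without the libraries with tissue other than lung, and 1929 to 4891 without single libraries (lowest without bleomycin female 4, highest without bleomycin male 4). In sham lungs 83 passed, with 317 by DESeq2, 856 by limma-voom and 315 in a fit of only the groups compared, and 37 to 143 without single libraries. For the difference of response 903 passed, with 2175 by DESeq2, 522 with no filter on low values, 3455 by limma-voom and 27 without the libraries with tissue other than lung, and 321 to 3000 without single libraries (lowest without bleomycin female 2, highest without bleomycin male 4).

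The signs that turned were of values that had not passed. In males Slc2a1 became 0.0060 with library totals, 0.00043 with limma on log2(FPKM + 0.1) and 0.059 without the libraries with tissue other than lung, and Aldoa 0.046, 0.016 and 0.20 in those settings, 0.010 with a filter of 2 FPKM and 0.016 with limma on log2(FPKM + 1). Without the libraries with tissue other than lung, males had 0.30 for Pfkfb3, -0.052 for Adm and -0.14 for Egln3; the sham difference was 0.032 for Aldoa and 0.24 for Pfkfb3; and the difference of response was -0.23 for Pgk1 and -0.19 for Pfkfb3. By limma-voom the bleomycin sex difference was 0.066 for Ldha and 0.21 for Pgk1, and the difference of response 0.028 for Ldha and 0.030 for Aldoa. Without single libraries, male responses ran from -0.23 to 0.070 for Slc2a1, -0.17 to 0.067 for Aldoa and -0.052 to 0.20 for Egln3. Sham differences ran from -0.20 to 0.034 for Hk2 and -0.0093 to 0.089 for Ldha, the bleomycin difference of Pgk1 from -0.19 to 0.061, and differences of response from -0.096 to 0.15 for Pgk1 and -0.24 to 0.0046 for Aldoa. Scaling by library totals moved the median of all genes in males to 0.102.

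Equal replicate numbers were not treated as pairs in the main fit. Of 30 pairs of libraries with the same number 10 correlated above 0.1. By a strict count, 1 of 20 libraries correlated best with its own number in every other group at once. The median correlation was 0.0509 for pairs with the same number (highest 0.428) and -0.0188 for other pairs. With a replicate block, 4 of the 10 genes passed in females, 4 in males, 3 between the sexes after bleomycin and 2 for the difference of response. Hk2 in males lost its call (adjusted p = 0.0527), and Pgk1 in females (0.0466) and Adm after bleomycin (0.0479) gained one.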
